A study of Mus musculus with 8 samples.

Results

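The autophagy genes were taken as the 19 symbols of the deposited expression table that begin with Atg and a digit, together with 22 further members of the pathway that do not carry that prefix. All 41 were present among the 35906 genes to which the deposited transcript counts could be assigned, and 40 of them held enough reads to be tested. The remaining symbol, Atg4a-ps, is named as a pseudogene of Atg4a (chr3:103643954-103646068), although the GENCODE M21 annotation classes it as protein-coding. It reached no more than 0.0931 TPM (transcript abundance scaled to length and depth) in any library and was not tested. Macrophages were sorted from liver of BALB/c WT mice that received either vehicle (4 libraries) or carbon tetrachloride (CCl4, 4 libraries), a hepatocyte toxin whose repeated use produces liver fibrosis. The series addresses how liver macrophages differ in fibrosis. No transgene or other allele was named for either group, and how much CCl4 was given and for how long was not given in the sources used here. Sorting kept live cells that stained for CD45, a surface protein of leukocytes, and for F4/80, a surface protein of macrophages; the series' design adds that cells bearing CD31, an endothelial protein, were gated out. The labels do not tie each library to its own mouse. The p-values therefore measure the spread between these libraries, some of which may be technical.

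Macroautophagy is the route by which a cell wraps cytoplasm, damaged organelles or microbes in a double membrane, the autophagosome, and delivers them to lysosomes. A kinase complex built on Ulk1 and Atg13 starts the process, and a lipid kinase complex built on Pik3c3 and Becn1 marks the growing membrane. Conjugation enzymes then attach the Atg8 proteins (LC3 and GABARAP) to the membrane lipid phosphatidylethanolamine, and cargo receptors link ubiquitin-tagged cargo to them. In macrophages some of the same conjugation enzymes also attach LC3 to phagosomes, a process known as LC3-associated phagocytosis. Transcript levels do not measure autophagic flux, which depends largely on protein modification and turnover.

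The libraries held between 19489104 and 26196063 estimated counts. Macrophage markers were present in every library at 5646 to 9171 summed CPM (counts scaled to the library total) in vehicle and 6740 to 7785 in CCl4, and 0 of their 6 genes passed edgeR's test (0 at an unadjusted p under 0.05). Markers of narrower cell types differed between the groups. Summed Kupffer cell markers (the resident macrophages of the liver) stood at 22020 to 30520 CPM in vehicle and 6145 to 10900 in CCl4, with 5 of 6 genes lower. Endothelial markers stood at 616.3 to 943 against 210.4 to 266 CPM (6 of 8 genes lower), and neutrophil markers at 29.6 to 83.75 against 64.19 to 224.1 CPM (4 of 8 genes higher). The stellate cell and fibroblast markers overlapped in sum, at 116.6 to 500.8 against 146.4 to 288.4 CPM, with 3 of 7 genes higher (the collagens Col1a1, log2 2.54, Col1a2, 1.66, and Col3a1, 1.65) and 1 lower (Lrat, -2.26). Hepatocyte markers stood at 83.91 to 140.8 against 55.44 to 106 CPM with 1 of 7 genes lower (Alb, -0.79), and of the 6 B and T cell markers (27.8 to 73.98 against 24.1 to 48.45 CPM) 0 passed edgeR's test (1 at an unadjusted p under 0.05). No marker on these lists was at 0 in all libraries. The mitochondrial share of counts was 1.91% to 5.31% in vehicle and 0.763% to 1.16% in CCl4 (exact permutation test, two-sided, p = 0.0286, the smallest that 4 against 4 allows). The part of these differences in the results that follow was not tested, and in bulk RNA fewer cells of a type and less RNA per cell cannot be told apart.

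Of the 40 autophagy genes tested, 3 were higher in CCl4 and 1 was lower at an adjusted p under 0.05 (edgeR's quasi-likelihood test with Benjamini-Hochberg adjustment over all genes), and 36 passed in neither direction. Atg13, Gabarapl1 and Atg12 rose and Atg3 fell. The share of members called was 10%, against 15.2% of the 15212 genes tested (8.93% higher and 6.26% lower), so the pathway did not stand above the background. At an unadjusted p under 0.05 there were 11 of the 40 members, against 4297 of the 15212 genes tested. The 4 libraries of the groups did not overlap in 10 members, against 22.5% of all tested genes (13% higher and 9.49% lower). The median log2 fold change over the members was 0.19, and over all tested genes it was -0.03; 30 members had a value above 0 and 10 below. With scaling to library size only, the all-gene median moved to -0.16 and the member median to 0.06, with 23 members above 0, so that the distance between the medians was 0.22 with the usual scaling and 0.21 with this scaling. That scaling also moved the share of higher genes among all calls from 58.8% to 43.1%, and upper-quartile scaling moved it to 47.5%. Without the second vehicle library the distance between the medians fell to 0.10.

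**Figure D1:**
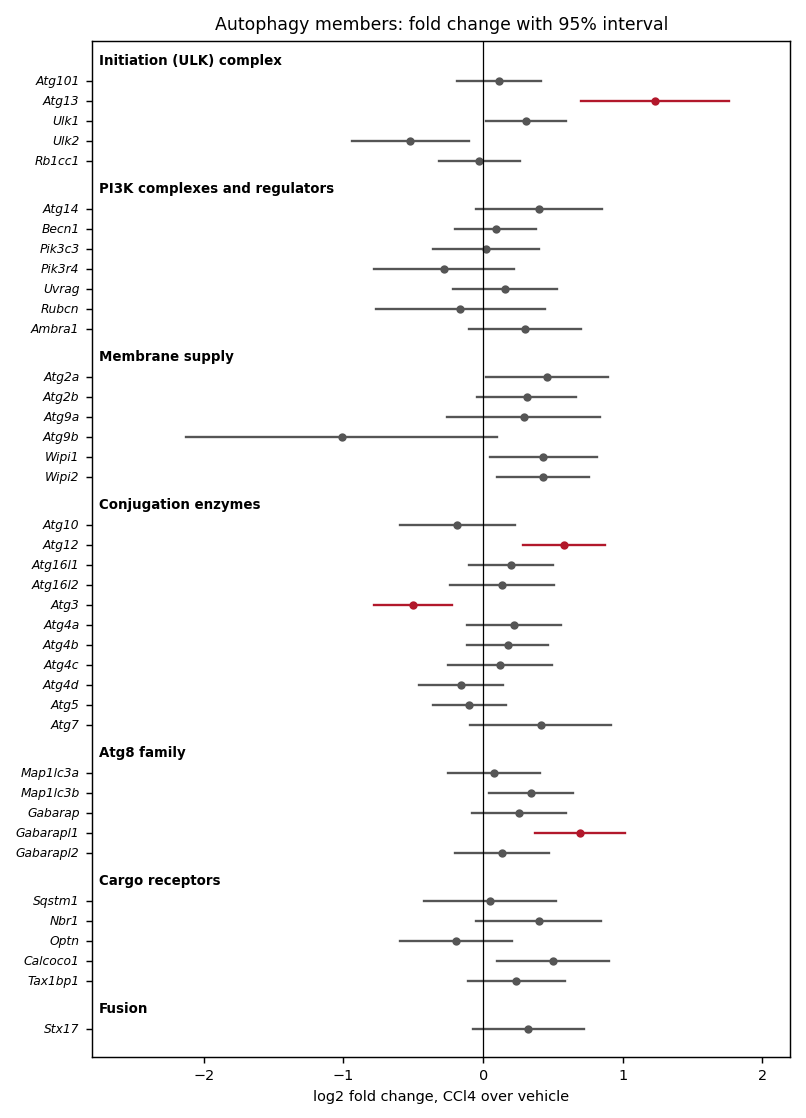
Log2 fold change of each of the 40 tested autophagy genes, CCl4 against vehicle (4 libraries each), grouped by role; points are edgeR estimates and bars their 95% confidence intervals, and red points passed an adjusted p under 0.05. Atg13 has the highest value (1.23), Atg3 lies below 0, and the intervals of most other members include 0.

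Atg13, the adaptor that binds the Ulk kinases and brings the initiation complex to the membrane, showed the largest change among the members. Its TMM-normalized level was 27.1, 13.3, 27.1 and 29.5 CPM in the 4 vehicle libraries and 56.2, 44.4, 73.5 and 54.2 CPM in the 4 CCl4 libraries. Every CCl4 library lay above every vehicle library, and the second vehicle library was the lowest of the 8. The means were 24.3 ± 7.4 and 57.1 ± 12.1 CPM (SD, n = 4 each), a 2.35-fold rise (log2 1.23, SE 0.24, 95% interval 0.70 to 1.76, edgeR adjusted p = 0.00508). The gene lies on the minus strand at chr2:91674618-91710576 (mm10) and overlaps no other annotated gene. Without the low second vehicle library the log2 fold change was 1.03 (edgeR adjusted p = 0.00173).

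The other 4 genes of the initiation complex did not pass the test. Ulk1, the kinase that starts autophagy, stood at 30.2, 24.5, 27.6 and 29.1 CPM in vehicle and 31.0, 37.7, 36.2 and 32.7 CPM in CCl4. The groups did not overlap, but the difference was small (log2 0.31, SE 0.13, edgeR adjusted p = 0.151). Its paralogue Ulk2 lay in the opposite direction, at 49.3, 34.9, 45.7 and 34.7 CPM in vehicle and 23.6, 38.2, 23.9 and 29.0 CPM in CCl4. Here the second CCl4 library overlapped the vehicle range (log2 -0.52, SE 0.19, edgeR adjusted p = 0.0923), and without that library Ulk2 passed the test (log2 -0.69, edgeR adjusted p = 0.0318), as it did with upper-quartile scaling (log2 -0.60, edgeR adjusted p = 0.0461). Rb1cc1 (FIP200, the scaffold of the complex) and Atg101 (which stabilizes Atg13) had log2 fold changes of -0.03 and 0.11. By TPM, which is scaled to transcript length, Atg13 made up 7.16% ± 1.11 of the summed TPM of these 5 genes in vehicle and 15.1% ± 3.1 in CCl4, while the share of Ulk2 was 7.50% ± 1.32 and 5.02% ± 0.78 (SD, n = 4 each).

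**Figure D2:**
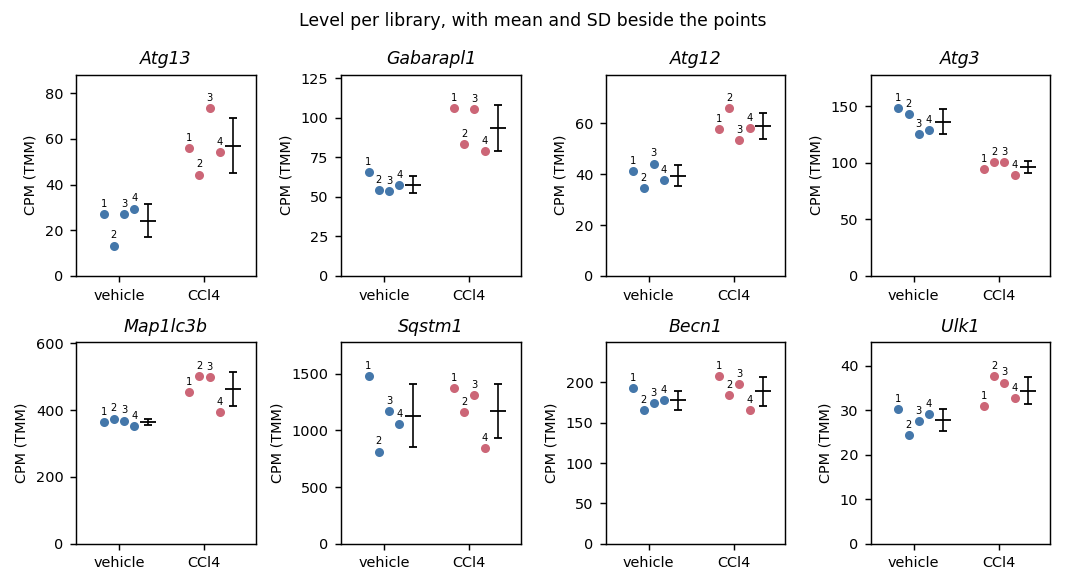
TMM-normalized CPM in each of the 8 libraries for the autophagy genes on which the results turn, with the mean and SD of each group. The CCl4 points lie above all vehicle points for Atg13, Gabarapl1 and Atg12 and below them for Atg3, while the groups overlap for Sqstm1 and Becn1.

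None of the 7 genes of the Becn1 and Pik3c3 lipid kinase complex and its regulators passed edgeR's test, nor did any have an unadjusted p under 0.05. Becn1, the scaffold of the complex, was among the steadiest members, at 193, 165, 174 and 178 CPM in vehicle and 208, 185, 198 and 166 CPM in CCl4. The CCl4 1 and CCl4 3 libraries lay above all vehicle libraries and the other two within their range, and the 95% interval of its log2 fold change ran from -0.20 to 0.38. Pik3c3, the catalytic subunit, had a log2 fold change of 0.02 (interval -0.36 to 0.40), and Uvrag, which directs the complex to late steps, one of 0.16. Atg14, which directs the complex to the forming autophagosome, was the sole gene of this role whose groups did not overlap. It stood at 14.9, 8.17, 15.7 and 16.1 CPM in vehicle and 17.9, 16.5, 19.7 and 18.3 CPM in CCl4 (log2 0.40, SE 0.21, edgeR adjusted p = 0.233), and the second vehicle library was far below the rest. Pik3r4, the regulatory subunit, had a value of -0.28; its second vehicle library was low at 13.8 CPM, and without that library the gene passed the test as lower in CCl4 (log2 -0.48, edgeR adjusted p = 0.033). Rubcn, an inhibitor of late autophagy that is needed for LC3-associated phagocytosis, had a value of -0.17, and Ambra1, a Becn1 partner, one of 0.30 (-0.13 in the FPKM fit without a filter).

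Among the 6 genes that supply membrane and lipid, 0 passed edgeR's test. An unadjusted p under 0.05 was found for 3 of them, against 4297 of all 15212 tested genes. Wipi2, which binds the lipid made by Pik3c3 and recruits the conjugation machinery, stood at 46.1, 31.3, 42.2 and 47.4 CPM in vehicle and 57.3, 60.3, 52.4 and 54.6 CPM in CCl4. Its groups did not overlap (log2 0.43, SE 0.15, edgeR adjusted p = 0.083), and DESeq2 called it (adjusted p = 0.0419). The related Wipi1 had a similar value at a lower level (9.07 ± 1.75 and 12.2 ± 0.7 CPM, SD, n = 4 each, log2 0.43, edgeR adjusted p = 0.13). Wipi1 passed the test without the second vehicle library, its highest in vehicle (log2 0.56, edgeR adjusted p = 0.0272). Atg2a and Atg2b, which carry lipid into the growing membrane, had log2 fold changes of 0.46 and 0.31. Atg9a, the scramblase found in autophagy vesicles, had 0.29. Atg9b was near the lower limit of measurement, at 0.83 ± 0.38 CPM in vehicle and 0.41 ± 0.02 CPM in CCl4 (log2 -1.01, interval -2.13 to 0.10, edgeR adjusted p = 0.222). It overlaps Nos3, the endothelial nitric oxide synthase, on the other strand. Nos3 stood at 4.88 ± 1.84 and 2.87 ± 0.95 CPM (SD, n = 4 each). Since no step of the library preparation is named that marks the strand, reads of these genes in shared sequence cannot be told apart. A like limit may hold for other members, as 22 of the 41 overlapped another annotated gene on either strand. For some of them, such as Atg5 and Atg7, the overlapping genes were all on the same strand. Overlap was taken over whole gene spans, so shared transcript sequence was not shown. On the strand opposite Atg2b, Gskip stood at 36.8 CPM of the library total in vehicle and 41.8 in CCl4 (means). Fyttd1, opposite Rubcn, stood at 36.7 and 41.8 CPM.

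The conjugation enzymes held both a higher and a lower gene among 11 tested, with a median log2 fold change of 0.14. Atg12, the ubiquitin-like protein that is joined to Atg5 (chr18:46730144-46741580, minus strand), rose. It stood at 41.1, 34.6, 44.1 and 37.5 CPM in vehicle and 57.8, 65.9, 53.4 and 58.1 CPM in CCl4. All CCl4 libraries lay above all vehicle libraries, with means of 39.3 ± 4.2 and 58.8 ± 5.2 CPM (SD, n = 4 each; log2 0.58, SE 0.13, edgeR adjusted p = 0.0123). The call was lost with scaling to library size only (edgeR adjusted p = 0.0567) and in the limma fits to the deposited FPKM values (adjusted p = 0.202 to 0.286).

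Atg3, the enzyme that passes LC3 and GABARAP proteins onto the lipid (chr16:45158785-45188538, plus strand), fell. It stood at 148, 143, 125 and 129 CPM in vehicle and 94.6, 100.4, 100.4 and 89.4 CPM in CCl4. The lowest vehicle library was above the highest CCl4 library, and the means were 136 ± 11 and 96.2 ± 5.3 CPM (SD, n = 4 each; log2 -0.50, SE 0.13, edgeR adjusted p = 0.0201). This call was near the threshold: it was lost without vehicle 1 (edgeR adjusted p = 0.0585), vehicle 4 (0.0503), CCl4 1 (0.0592) or CCl4 4 (0.0509), with the log2 fold change between -0.44 and -0.53 in these fits. Atg7, the enzyme that activates both ubiquitin-like proteins, was at 92.2, 48.9, 92.0 and 97.4 CPM in vehicle and 103, 95.7, 149 and 92.7 CPM in CCl4. Its second vehicle library was low, its CCl4 3 library was high, and the groups overlapped (log2 0.41, SE 0.23, edgeR adjusted p = 0.272).

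Atg5, the partner of Atg12, was at 68.7, 71.3, 77.6 and 68.8 CPM in vehicle and 64.0, 71.4, 68.4 and 63.7 CPM in CCl4. The groups overlapped (log2 -0.10, interval -0.36 to 0.17, edgeR adjusted p = 0.66). Atg16l1, which completes the conjugate with Atg12 and Atg5, was at 32.5 ± 4.6 and 37.3 ± 0.9 CPM without overlap of the groups (log2 0.20, edgeR adjusted p = 0.384). The 4 Atg4 proteases, which trim Atg8 proteins and release them from lipid, had log2 fold changes of 0.22 (Atg4a), 0.17 (Atg4b, below 0 in the FPKM fits), 0.12 (Atg4c) and -0.16 (Atg4d). Atg10, the enzyme that joins Atg12 to Atg5, had -0.19, and Atg16l2, a paralogue of Atg16l1, had 0.14.

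The 5 Atg8 genes all had fitted values above 0, with 1 of them called; the value of Map1lc3a was near 0 and took the other sign under some alternatives. Gabarapl1 (chr6:129533160-129542346, plus strand) rose. It stood at 65.7, 54.4, 53.7 and 57.1 CPM in vehicle and 106, 83.1, 105 and 78.9 CPM in CCl4. The groups lay apart, at 57.7 ± 5.5 and 93.4 ± 14.4 CPM (SD, n = 4 each; log2 0.69, SE 0.15, edgeR adjusted p = 0.00825). The call was lost in the limma fits to the deposited FPKM values (adjusted p between 0.0597 and 0.114). Map1lc3b, the LC3 gene whose protein is the usual marker of autophagosomes, was at 363, 375, 369 and 353 CPM in vehicle and 454, 502, 500 and 395 CPM in CCl4. It did not pass the test although its groups lay apart (log2 0.34, SE 0.14, interval 0.04 to 0.65, edgeR adjusted p = 0.127), and DESeq2 called it (adjusted p = 0.0197). Gabarap was at 242, 288, 226 and 217 CPM in vehicle and 284, 338, 297 and 245 CPM in CCl4, with overlap (log2 0.26, edgeR adjusted p = 0.31). Without vehicle 2 and CCl4 4, Gabarap (log2 0.42, edgeR adjusted p = 0.0367) and Map1lc3b (log2 0.42, edgeR adjusted p = 0.0305) both passed as higher. Gabarapl2 and Map1lc3a had log2 fold changes of 0.13 and 0.08.

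By TPM the family was dominated by Gabarap and Map1lc3b in both groups. Gabarap held 40.4% of the summed TPM of the 5 genes in vehicle and 40.4% in CCl4, and Map1lc3b 37.7% and 37.6%. The share of Gabarapl1 was 5.24% ± 0.70 in vehicle and 7.04% ± 1.06 in CCl4, and that of Map1lc3a 4.89% ± 0.28 and 4.24% ± 0.82 (SD, n = 4 each). The summed TPM of the family was 878 ± 46 in vehicle and 1034 ± 94 in CCl4. All 4 CCl4 sums (957 to 1170) lay above the highest vehicle sum, but the nearest were close (946 in vehicle 2, 957 in CCl4 3). Mitochondrial counts made up 5.31% and 0.763% of these libraries. This separation is given for TPM alone, which carries no TMM scaling. By TMM-normalized CPM, Gabarap, Gabarapl2 and Map1lc3a were higher in vehicle 2 (288, 101, 27.3) than in CCl4 4 (245, 81.0, 25.5). Map1lc3b and Gabarapl1 were lower in vehicle 2 (375 and 54.4, against 395 and 78.9).

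**Figure D3:**
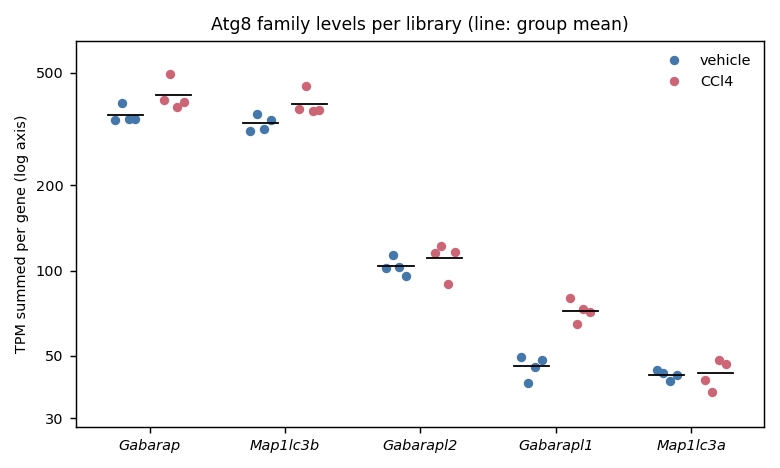
TPM (log axis) of the 5 Atg8 genes in each library, with a line at the mean of each group (4 libraries each). Gabarap and Map1lc3b are the most abundant in both groups, and Gabarapl1 lies higher in CCl4 at a lower level.

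None of the 5 cargo receptors passed edgeR's test, and 1 had an unadjusted p under 0.05. Sqstm1, the receptor for ubiquitin-tagged cargo that is itself degraded by autophagy, was the most abundant member by TPM in both groups, at 646 to 1082 TPM in vehicle. Its CPM was 1481, 813, 1170 and 1058 in vehicle and 1371, 1162, 1310 and 841 in CCl4. The groups overlapped over most of their range, and the 95% interval of the log2 fold change ran from -0.42 to 0.52 (edgeR adjusted p = 0.91). Sqstm1 made up 84.4% ± 1.8 of the summed TPM of the cargo receptors in vehicle and 82.4% ± 2.5 in CCl4 (SD, n = 4 each). Calcoco1, a receptor for parts of the endoplasmic reticulum, had the highest log2 fold change of the receptors in edgeR's fit to the counts (16.7 ± 3.3 and 23.6 ± 4.1 CPM, SD, n = 4 each; log2 0.50, edgeR adjusted p = 0.0907). Nbr1, which binds ubiquitin beside Sqstm1, stood at 52.5 ± 14.7 and 69.2 ± 5.1 CPM (SD, n = 4 each; log2 0.40, edgeR adjusted p = 0.23), and its result depended on the processing. It passed as higher in CCl4 with length-scaled TPM counts (log2 0.76, edgeR adjusted p = 0.0302) and in the filtered limma fits to log2(FPKM + 1) (0.77, adjusted p = 0.0258) and log2(FPKM + 0.1) (0.97, adjusted p = 0.0284), whereas without vehicle 2, its lowest library, the log2 fold change was 0.21. Its share of the receptors' TPM was 2.19% ± 0.16 in vehicle and 3.78% ± 1.62 in CCl4 (SD, n = 4 each), with the highest share, 6.10%, in CCl4 4. There its TPM was 60.2, against 33.6 in CCl4 2 and 36.5 in CCl4 3, while its CPM was similar (71.4, 71.8 and 72.0). Transcripts with few reads weigh much in its TPM: Nbr1-212, which retains an intron, held 5.08% to 23.7% of it at 0.17 to 1.44 CPM. Tax1bp1 had a log2 fold change of 0.24 and Optn, a receptor for mitochondria and bacteria, one of -0.20. The single fusion gene, Stx17, which joins the closed autophagosome to the lysosome, had 0.32 (edgeR adjusted p = 0.273) and a value below 0 in the FPKM fits (-0.085 to -0.14).

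In the order of TPM levels, Sqstm1 was followed by Gabarap and Map1lc3b, whose vehicle ranges overlapped, and then, at a clear distance, by Becn1, Gabarapl2, Tax1bp1, Atg3 and Atg101, each of which overlapped its neighbour. Atg3 held rank 7 in vehicle (88.2 to 95.4 TPM) and rank 9 in CCl4. Gabarapl1 held rank 9 in vehicle (39.9 to 49.2 TPM) and rank 8 in CCl4. These levels sum all transcripts of a gene, coding or not, so the order is not one of coding transcripts alone. A single transcript that retains an intron held 33.6% to 41.0% of the TPM of Becn1 across the libraries. Another held 41.3% to 51.1% of that of Gabarapl2. The most abundant tested coding transcript of Becn1 held 8.85% to 14.1%.

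The promoters of 3 of the 4 called genes are shown because these genes moved in different directions; the sequence of Atg12 is not shown. They are the RefSeq sequences of GRCm38.p6 on the strand of the gene, from 250 bases before the RefSeq start up to the first annotated transcript, 5′ to 3′. Capitals mark a match, on either strand, to the E-box CACGTG or the GC box GGGCGG.
Atg13 promoter, chr2:91710593-91710842, minus strand: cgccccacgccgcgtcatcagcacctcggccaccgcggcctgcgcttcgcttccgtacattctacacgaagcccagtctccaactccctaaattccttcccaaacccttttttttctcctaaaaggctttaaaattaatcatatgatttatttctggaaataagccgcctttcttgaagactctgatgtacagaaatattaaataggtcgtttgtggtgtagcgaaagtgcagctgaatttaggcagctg
Atg3 promoter, chr16:45158579-45158784, plus strand: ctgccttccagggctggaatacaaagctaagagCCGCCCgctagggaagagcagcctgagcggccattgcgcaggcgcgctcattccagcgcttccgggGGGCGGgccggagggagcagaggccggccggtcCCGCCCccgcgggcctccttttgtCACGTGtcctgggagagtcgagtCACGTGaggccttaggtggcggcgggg
Gabarapl1 promoter, chr6:129532942-129533159, plus strand: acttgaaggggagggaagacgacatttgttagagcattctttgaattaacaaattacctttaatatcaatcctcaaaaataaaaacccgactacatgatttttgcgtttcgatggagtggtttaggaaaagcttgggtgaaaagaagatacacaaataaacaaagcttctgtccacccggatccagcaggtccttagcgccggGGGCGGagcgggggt
The Atg3 sequence holds 2 E-boxes, 94 to 89 and 71 to 66 bases before the start, and 3 GC boxes. The Gabarapl1 sequence holds 1 GC box at 47 to 42 bases, and the Atg13 sequence holds neither motif. A second Gabarapl1 GC box, 10 to 5 bases before the start, lies in the part not shown. The counts that follow use the full 250 bases. Promoter sequences were matched for 34 of the 41 members (39 promoters). The E-box was found in 4 of these 39 (Atg3, Atg5, Atg7 and Rubcn), against 6.02% of all 32851 promoters of that length. The GC box was found in 22 of 39, against 32.7% of all, and the CCAAT box (CCAAT) in 11 of 39, against 33.8%. None of these motifs contains another. The forkhead site GTAAACA was found in 0 of 39 (3.17% of all). These matches describe letters in a window and not binding.

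Read assignment to single transcripts was less certain than to genes. Of the 158 member transcripts tested, 3 were called higher and 1 lower, and 4.01% of all 38645 tested transcripts were called (2.41% higher and 1.59% lower). Atg3-201, which held 96.8% to 100% of the TPM of Atg3, fell (138 to 94.2 CPM, log2 -0.55, edgeR adjusted p = 0.0326), and Gabarapl1-201, which held 93.9% to 99.1% of its gene, rose (58.6 to 91.6 CPM, log2 0.65, edgeR adjusted p = 0.0489). The others belonged to genes that were not called as a whole. Atg9a-205, a coding transcript, was at 4.67, 4.60, 6.30 and 4.58 CPM in vehicle and 9.59, 10.3, 14.0 and 12.6 CPM in CCl4 (log2 1.21, edgeR adjusted p = 0.0188). Wipi2-204, which retains an intron, was at 5.76, 4.75, 2.91 and 3.72 CPM in vehicle and 11.0, 14.2, 7.80 and 11.5 CPM in CCl4 (log2 1.38, edgeR adjusted p = 0.0325). For both of these transcripts every CCl4 library was above every vehicle library. Each of the 4 calls was lost without some single library, with adjusted p-values between 0.0547 and 0.168: Atg3-201 in all but the fit without vehicle 2, Gabarapl1-201 without vehicle 1, 3 or 4 or CCl4 1, 2 or 3, Wipi2-204 without vehicle 3 or 4 or CCl4 1, 2 or 4, and Atg9a-205 without vehicle 1 or 4 or CCl4 3 or 4. The main coding transcript Atg13-202 was close to the threshold (log2 1.17, edgeR adjusted p = 0.0535).

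Genes of autophagy outside the 41 were read from lists of the pathway. These lists were chosen with earlier results of these data known, so their called shares are not independent of the data. Of 40 tested genes of selective autophagy and the late steps, 9 were higher and 0 lower (22.5% called against the 15.2% of all genes). Their median log2 fold change was 0.35, and 17 had an unadjusted p under 0.05 (4297 of all 15212 tested genes). The highest value belonged to Retreg1 (FAM134B), a receptor that targets the endoplasmic reticulum to autophagy. It stood at 26.7, 38.8, 12.7 and 19.8 CPM in vehicle and 98.3, 70.6, 76.9 and 78.1 CPM in CCl4 (log2 1.73, SE 0.28, edgeR adjusted p = 0.00172). The groups lay far apart. The others follow with their log2 fold change and edgeR adjusted p. They were Trp53inp1, an Atg8-binding stress protein (0.97, 0.00286), Tecpr1, which binds the Atg12 conjugate and lysosomes (0.96, 0.00444), Bcl2, a Becn1-binding inhibitor (0.71, 0.0399), and the mitophagy receptors Bnip3l (0.58, 0.00859) and Bnip3 (0.49, 0.0462). Tmem41b, a lipid scramblase (0.55, 0.0255), Lamp2, a lysosomal membrane protein (0.54, 0.0438), and Ykt6, a SNARE of autophagosome fusion (0.52, 0.0266), completed the list.

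Of 22 tested genes of nutrient sensing and transcriptional control, 4 were higher and 2 lower (27.3% called, against 15.2% of all tested genes). Foxo3, a transcription factor that drives autophagy genes, rose from 11.6 ± 1.7 to 21.5 ± 3.8 CPM (SD, n = 4 each; log2 0.88, edgeR adjusted p = 0.00481), and Mitf, of the same factor family as Tfeb, from 22.1 ± 3.7 to 40.7 ± 10.0 CPM (log2 0.88, edgeR adjusted p = 0.0124). Tsc1, which restrains the kinase mTOR, rose by a log2 of 0.45 (edgeR adjusted p = 0.0473). The regulatory subunits of AMPK, the kinase that senses low energy, moved in both directions: Prkag2 rose (log2 0.79, edgeR adjusted p = 0.0323), while Prkag1 (-0.66, 0.00869) and Prkab1 (-0.65, 0.0165) fell. Of the 6 subunits of the NADPH oxidase used in LC3-associated phagocytosis, Ncf4 rose (226 ± 14 to 386 ± 62 CPM, SD, n = 4 each, log2 0.77, edgeR adjusted p = 0.00551). The other 5 did not pass, with a median of 0.43 over the 6. The share called was thus 16.7%, near the 15.2% of all tested genes.

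Retreg1, Trp53inp1, Tecpr1, Bnip3l, Foxo3, Mitf, Prkag1 and Ncf4 passed in each fit that left out a single library, though not all of them in every other setting. Retreg1 and Tecpr1 passed in all 18 and 21 settings in which they could be tested. Foxo3 was lost with length-scaled TPM counts (edgeR adjusted p = 0.0785), and Mitf in the 3 FPKM fits (log2 0.23 to 0.40, limma adjusted p = 0.324 to 0.534), as was Bnip3l (limma adjusted p = 0.0572 to 0.0647). The FPKM fit without a filter also lost Trp53inp1, Foxo3, Ncf4 and Prkag1. With scaling to library size only, Bcl2, Bnip3, Lamp2, Prkag2, Tmem41b, Tsc1 and Ykt6 were lost (edgeR adjusted p = 0.0641 to 0.194). Several other calls were lost without some single library (edgeR adjusted p between 0.052 and 0.139). These were Bcl2 without vehicle 1 or 3 or any CCl4 library, Bnip3 without vehicle 1, 3 or 4 or CCl4 2, 3 or 4, Lamp2 without vehicle 3 or 4 or CCl4 1, 2 or 3, and Ykt6 without vehicle 3 or 4 or CCl4 1 or 3. Tmem41b was lost without vehicle 4 or CCl4 1 or 2, Prkab1 without vehicle 3 or 4 or CCl4 1, and Prkag2 without vehicle 1 or 3 or any CCl4 library. Tsc1 kept its call among these fits in the fit without CCl4 1 alone.

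**Figure D4:**
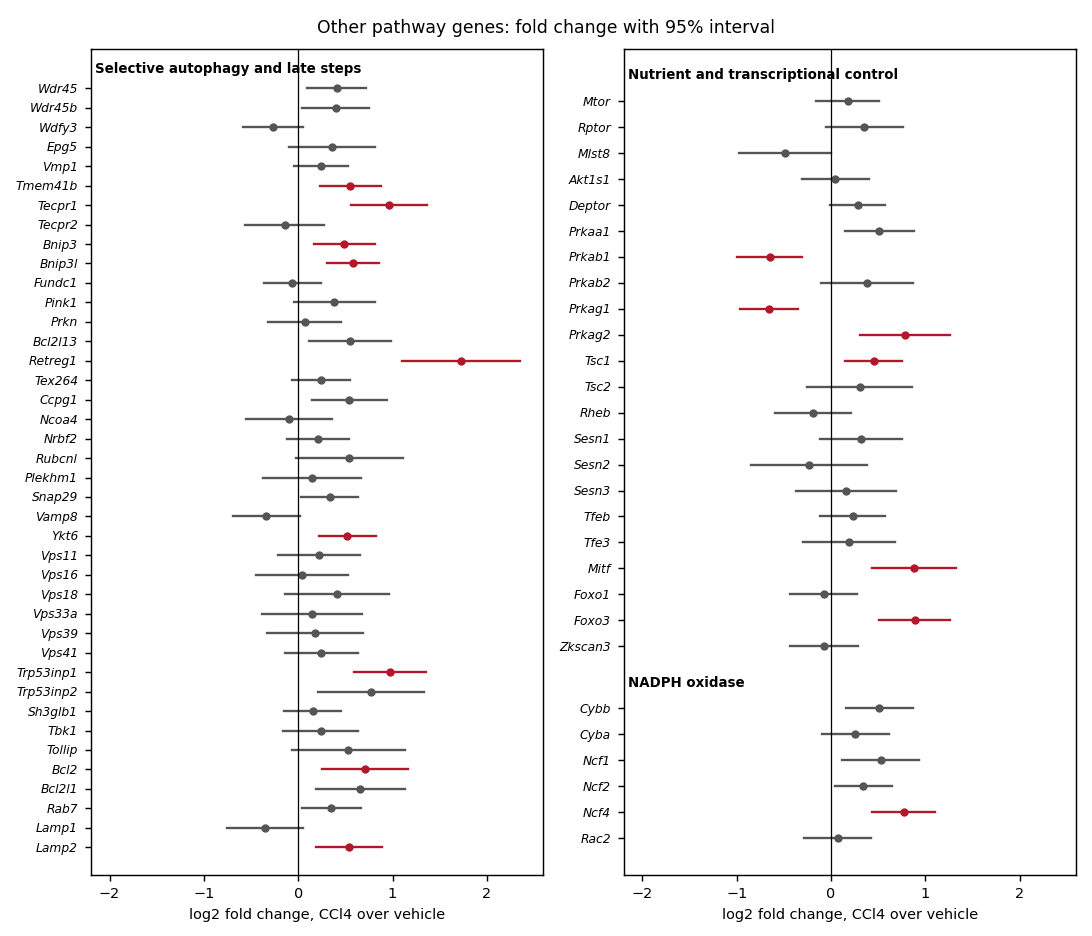
Log2 fold change (CCl4 against vehicle, 4 libraries each) of the tested genes from the lists of selective and late autophagy (left), nutrient and transcriptional control, and NADPH oxidase (right); points are edgeR estimates, bars 95% confidence intervals, and red marks an adjusted p under 0.05. Retreg1 lies highest (1.73), and Prkag1 and Prkab1 lie below 0.

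The second vehicle library stood apart within its group in many of these genes. It was the lowest of the 8 libraries in 26 of the 40 members (65%), against 26% of all tested genes. Its median log2 difference from the other vehicle libraries was -0.33 over the members and 0.01 over all tested genes. Across the 40 members this difference had a Spearman correlation of -0.60 with effective transcript length (-0.19 across all tested genes). A relation with length was not confined to vehicle 2. In the other libraries, each against the rest of its group, the correlation across members ran from -0.38 (CCl4 1) to 0.55 (vehicle 4). Across all tested genes it ran from -0.27 (CCl4 2) to 0.24 (CCl4 4). Genes of 1 library share its depth and preparation and are not replicates. Pik3r4, Rubcn, Atg9a and Atg13, all of middle or greater length, were more than a log2 of 1 below the other vehicle libraries, and the short Gabarap and Gabarapl2 were 0.34 and 0.37 above. Length did not order all members: the long Atg2b, Ulk2 and Atg12 had differences of only -0.19, -0.29 and -0.24, and the short Atg16l2 had -0.51. The members furthest above were Atg9b (0.64, at a level near the lower limit of measurement) and Wipi1 (0.46), with effective lengths of 1865 and 1873 bases. The CCl4 3 library was the highest of the 8 in 14 members (35%, against 15.8% of all tested genes). The part of these libraries in the member differences was measured by leaving them out. Without the second vehicle library the median over the members was 0.11, and Atg13, Gabarapl1, Atg12 and Atg3 kept their calls.

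**Figure D5:**
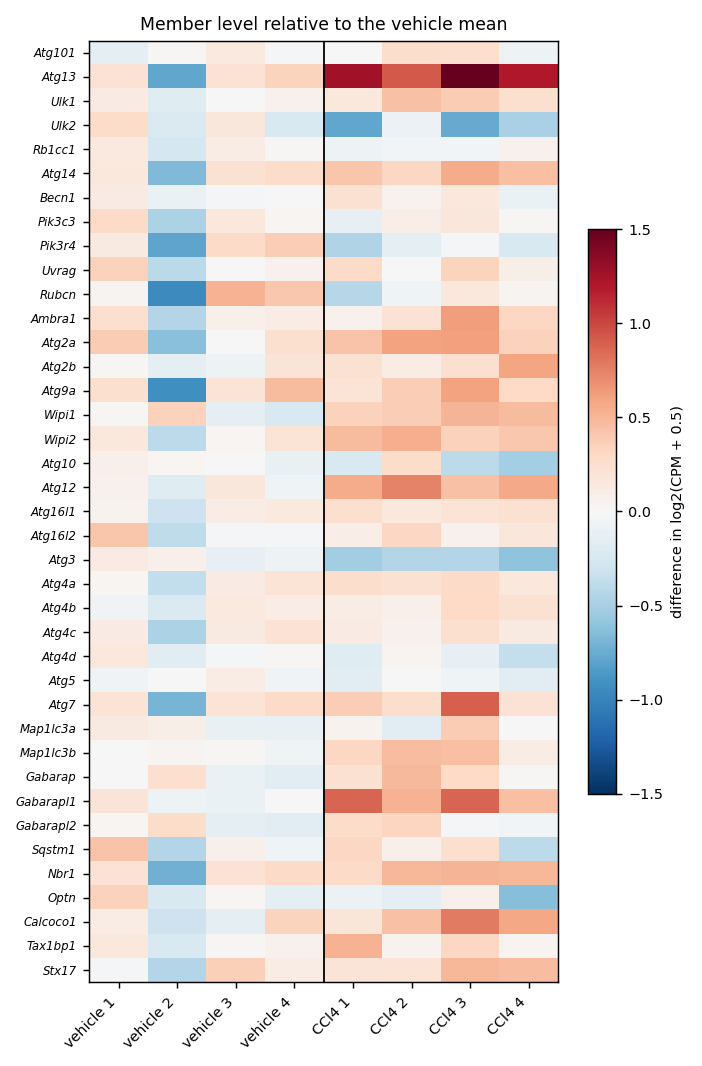
Log2 difference of each autophagy gene from the mean of the 4 vehicle libraries, by library (columns), with genes in rows ordered by role; Atg9b is left out because of its low level. The column of the second vehicle library is low in most rows (median -0.25 over the 40 members), and CCl4 3 is high in many (median 0.29).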

How the data were processed

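RNA from macrophages sorted from mouse liver was amplified (SMART-Seq HT) and made into libraries (NEBNext Ultra II), per the labels' protocols. For each library the authors deposited kallisto estimated counts and TPM per transcript; their tools were kallisto, limma and edgeR, on build mm10, per the submitters' processing notes, without versions or roles. The deposited FPKM table per gene was used to choose the members and as an alternative; the making of these FPKM was not given in the sources used here. Column sums were 81142 to 113842. Its 1 unnamed line (0.0156% to 0.0369% of a column) was left out.

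Transcripts were assigned to genes of GENCODE M21 by identifier without version: 116405 of 117494 matched, and 13 also matched with the version, so the authors' transcript models may differ from M21. The 1089 unmatched transcripts held 0.29% to 0.313% of the counts and were left out. Estimated counts were summed per gene and rounded. Since kallisto divides reads among similar transcripts, levels of close paralogues and of single transcripts are estimates. Library totals were 19489104 to 26196063, and no pair within a group was near-identical. Genes were kept by edgeR's filterByExpr (minimum count 10, minimum total 15), which set aside 20694. CCl4 was compared with vehicle in all 8 libraries by edgeR 4.0.16 (R 4.3.3, TMM, quasi-likelihood test, group as the sole term, two-sided, Benjamini-Hochberg over all tested genes or transcripts, threshold 0.05). The SE is the log2 fold change divided by the square root of F. Intervals are 95%. Summed marker levels are CPM of the library total. The analysis was tested on simulated data. Alternatives were other scalings and filters, DESeq2 1.42.0, limma 3.58.1 (voom, and log2 of FPKM plus 1 or 0.1), length-scaled TPM counts, a replicate block, and leaving out libraries.

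The members, lists and tests were chosen with earlier results of these data known. Named genes are the called members, those of central roles, and the called genes of each further list; the values of Ulk2, Atg14, Wipi2 and Retreg1 in each library were added after they were seen. Overlapping genes were taken from M21 and promoters from RefSeq.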

Additional observations from a re-analysis of the deposited data

Results flagged for a closer look

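The 4 libraries of each treatment were checked for each of the 40 tested members, the 16 called genes of the further lists, the mitochondrial share and the 7 marker sums. In 7 of these 128 groups 1 library lay far from the other 3 by Dixon's test, with a gap above its 95% critical value; chance gives about 1 in 20. In 6 of these the library was vehicle 2, which was low. It had 13.3 CPM of Atg13 (27.1 to 29.5 in the others), 8.17 CPM of Atg14 (14.9 to 16.1), 12.6 CPM of Atg4c (19.5 to 20.8), 48.9 CPM of Atg7 (92.0 to 97.4), 30.6 CPM of Nbr1 (58.8 to 61.6) and 23.7 CPM of Ykt6 (28.9 to 29.5). In the remaining case CCl4 1 had 61.6 CPM of Nbr1, against 71.4 to 72.0 in the other CCl4 libraries.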

How the results depend on the processing

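Atg13 passed in 21 of 21 settings, Gabarapl1 in 18, Atg12 in 17 and Atg3 in 16; Atg3 also failed with no filter on low counts (edgeR adjusted p = 0.0688), where 0 members were lower. Over the 40 tested members, 713 of 781 alternative values kept their direction and side of the threshold, 12 lost and 12 gained a call, and 44 changed sign. For the 16 called genes of the further lists, 96 of 309 alternative values lost the call and 0 changed sign. The members called higher numbered 5 with DESeq2, 6 without vehicle 2 and CCl4 4, and 1 with limma on log2(FPKM + 1) without a filter, where the member median was 0.031. Upper-quartile scaling called 2 lower. In either direction, DESeq2 called 15% of members and 19.9% of all genes. Without vehicle 2 and CCl4 4 these shares were 17.5% and 18.8%. In the unfiltered FPKM fit they were 4.88% and 2.66%, and with upper-quartile scaling 12.5% and 17%. Over all genes, scaling to library size only called 1431 lower. The FPKM fits called 448 higher and 543 lower with a pseudocount of 1, 436 and 521 with 0.1 (6359 genes), and 335 and 315 without a filter (24443 genes).

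Leaving out 1 library gave 1004 to 1503 genes higher and 578 (without CCl4 1) to 1163 lower, 3 to 4 members higher and 0 to 2 lower, 0 to 4 member transcripts higher and 0 to 1 lower, and a member median of 0.11 to 0.26. The labels do not say whether the replicate numbers pair the libraries. Same-numbered libraries had correlations of their deviations of 0.02, -0.24, 0.04 and -0.17. Differently numbered ones ran from -0.46 (vehicle 1 with CCl4 4) to 0.47 (vehicle 2 with CCl4 4). With 4 libraries a group these values cannot decide whether a pairing exists. With a replicate block, 1281 genes were higher and 829 lower, 3 members higher and 1 lower, and 0 member transcripts were called in either direction.

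Some values changed sign, most of them near 0 and 3 of them larger (Stx17 at 0.32, Ambra1 at 0.30 and Atg4b at 0.17 in edgeR's fit to the counts). With scaling to library size only these were Atg101 (-0.027), Atg4c (-0.0089), Becn1 (-0.048), Gabarapl2 (-0.0008), Map1lc3a (-0.065), Pik3c3 (-0.11) and Sqstm1 (-0.088). With upper-quartile scaling they were Becn1 (-0.0031), Map1lc3a (-0.021), Pik3c3 (-0.061) and Sqstm1 (-0.037). In the FPKM fits with a pseudocount of 1, with and without the filter, they were Atg4b (-0.074), Map1lc3a (-0.081), Pik3c3 (-0.042), Rb1cc1 (0.016), Sqstm1 (-0.0896) and Stx17 (-0.085), and without the filter also Ambra1 (-0.13). With 0.1 they were Atg4b (-0.086), Map1lc3a (-0.097), Pik3c3 (-0.064), Rb1cc1 (0.029), Sqstm1 (-0.0904) and Stx17 (-0.14). Pik3c3 was -0.0013 at a minimum count of 50 and -0.11 without vehicle 2 and CCl4 4, where Atg4c was -0.02; Rb1cc1 was 0.033 with length-scaled TPM counts. The cause was not tested.

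Leaving out 1 library also turned the sign of some log2 fold changes, which ran as follows: Atg4c from -0.018 to 0.19, Map1lc3a from -0.0104 to 0.15, Pik3c3 from -0.12 to 0.13, Rb1cc1 from -0.11 to 0.0395, Rubcn from -0.40 to 0.0089 and Sqstm1 from -0.078 to 0.22.

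Depth did not limit the abundant members, but Atg9b and Atg4a-ps were near the floor. With 4 libraries a group, an interval that includes 0 leaves the direction of a difference undetermined. CCl4 dose, time course, proteins and autophagic flux were not analysed here.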
